A study of Mus musculus with 4 samples.

Results

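A set of 10 secreted factors that C2C12 muscle cells can release to call or feed immune cells were followed through differentiation and after transfection of a siRNA against hnRNPL. They were the chemokines Ccl2, Ccl7, Cxcl1, Cxcl5, Cxcl10, Cxcl12 and Cxcl14 and the cytokines Il6, Lif and Csf1, chosen by name as the rows whose gene symbol equals one of these 10 among 25072 different symbols in the tables. Each gene had exactly 1 row in each of 4 libraries. C2C12 is a mouse myoblast line whose cells leave the cell cycle and fuse into myotubes once serum is reduced. MB was a proliferating myoblast culture in growth medium (DMEM with 10% FBS), taken 24 h before the switch to differentiation medium (DM, DMEM with 2% horse serum), and MT was a culture after 72 h in DM. Both were sequenced as total RNA depleted of ribosomal RNA. The other pair was poly A+ RNA from cells after 48 h in DM, transfected 24 h before DM with 100 nM of a siRNA against hnRNPL (si-hnRNPL) or of a control siRNA (si-NC). hnRNPL is an RNA-binding protein of the nucleus, and the study asked which genes depend on it during differentiation. All samples are of the 1 cell line, with no other cell type or animal in the design, and each condition is 1 library.

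Chemokines are small secreted proteins that steer migrating cells through G protein-coupled receptors, and their spacing of N-terminal cysteines divides them into the CC and CXC families. In injured muscle, CC chemokines draw monocytes and CXC chemokines with an ELR motif draw neutrophils, while CSF1 keeps macrophages alive. IL-6 and LIF belong to the cytokines that signal through the shared receptor subunit gp130, JAK kinases and STAT3, and both are known as myokines that act on muscle precursor cells themselves.

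Levels are given as FPKM, the fragments scaled by transcript length and by library size, with the 95% interval that Cufflinks attached to each value. The interval covers counting and assignment error inside a library and not the spread between cultures, so no p-value can be given and no difference has a replicate check. Differences are log2((FPKM + 1) ratio), which understates changes of low genes, and a gene was called higher or lower at an absolute log2 difference of 0.58, close to the 1.5-fold change of the study. The interval widths correspond to 54442000 to 59960000 fragments in the total RNA libraries and 14592000 to 21341000 in the poly A+ libraries, so low genes were measured less well in the latter pair. An amount of 3 fragments corresponded to a median of 0.0158 to 0.0163 FPKM in total RNA and 0.0432 to 0.0634 FPKM in poly A+ RNA. Preparation, platform, time in DM and transfection all differ between the pairs, so levels in total RNA and in poly A+ RNA are set side by side only.

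Regulatory sequences of several of these genes carry letters that recur in cytokine genes, and a few are shown here because they show how the genes differ from each other. The RefSeq promoter table (GRCm38.p6) held 7 of the 10 genes, without Ccl2, Ccl7 and Cxcl5. In the 250 bases before the gene start, a kB-like motif (GGNNNTTCC on either strand) was found in Csf1, Cxcl1, Cxcl10 and Il6, that is in 4 of 7, and in 15.7% of all 32851 promoters of that length. The matches nearest to each start are in capitals below, within 61 bases on the strand of the gene.
Il6, 43 bases before the start, chr5:30013045-30013105 (+): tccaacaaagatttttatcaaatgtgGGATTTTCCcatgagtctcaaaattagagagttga
Cxcl1, 70 bases before the start, chr5:90891149-90891209 (+): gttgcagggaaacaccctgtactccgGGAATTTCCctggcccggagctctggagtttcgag
Cxcl10, 103 bases before the start, chr5:92348958-92349018 (-): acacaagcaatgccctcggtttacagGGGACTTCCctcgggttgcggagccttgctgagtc
Csf1, 154 bases before the start, chr3:107760589-107760649 (-): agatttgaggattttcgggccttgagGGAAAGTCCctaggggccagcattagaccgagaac
An AP-1-like motif (TGANTCA) was found in Cxcl10, Il6 and Lif, against 6.75% of all promoters. The C/EBP-like TTGCNNAA was found in Il6 (9.56% of all), and the interferon element-like TTCNNTTTC in Cxcl10 and Cxcl14 (7.13% of all). An E-box (CANNTG), the letters that MyoD and other muscle factors read, was found in Cxcl1, Cxcl10, Il6 and Lif, against 66.2% of all. TATAAA was in none of the 7, against 12.4% of all, and the window of Cxcl12 held none of the 6 motifs. The 18 matches did not overlap each other. A match describes letters in this window and shows no binding.

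The 3′UTRs also differ between the genes. ATTTA is the core of AU-rich elements, through which proteins such as ZFP36 and hnRNP D hasten the decay of cytokine mRNA. In the longest annotated 3′UTR of each gene (GENCODE on mm9), 9 of the 10 genes held ATTTA, against 61.3% of 19915 genes, and against 72.7% of the 15209 genes whose 3′UTR length lay within the range of these 10. Il6 had 5 copies in 420 bases and Cxcl1 7 copies in 592 bases, or 11.9 and 11.8 per kb. The median was 3.19 per kb over the 10 genes and 1.00 per kb over all genes. Cxcl12, with 4 copies in 5188 bases, had 0.771 per kb, and Cxcl14 had none in 1145 bases. These words were searched after the expression values had been seen. The 27-base stretch richest in ATTTA (capitals) is given for the densest 3′UTRs, Cxcl1 and Il6, and for Lif and Csf1, whose levels differed between MB and MT in opposite directions.
Cxcl1, mm9 chr5:91321631-91321657 (+): ggtcctATTTATTTAtgtATTTATTTA
Il6, mm9 chr5:30346220-30346246 (+): aattatttttaATTTAttgataATTTA
Lif, mm9 chr11:4170479-4170505 (+): tgtctATTTAttactatgtcctATTTA
Csf1, mm9 chr3:107544027-107544053 (-): atataaggtcATTTAaatatctATTTA

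Most of these genes were detected at 1 FPKM or above, over a wide range of levels. In MB they ran from Il6 at 0.130 FPKM to Csf1 at 158 FPKM, with a median of 11.4, and in MT from Il6 at 0.198 to Ccl7 at 52.9, with a median of 13.6. In MB 7 genes were at 1 FPKM or above, and 8 in each of the other libraries. Csf1 led in MB, Ccl7 in MT and Cxcl12 in both poly A+ libraries, each with an interval above that of the next gene. Il6 was lowest in all 4 libraries, with an interval that overlapped that of Cxcl10 each time. The intervals of Cxcl14 and Lif overlapped in both poly A+ libraries, and those of Ccl2 and Ccl7 in MB.

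**Figure D1:**
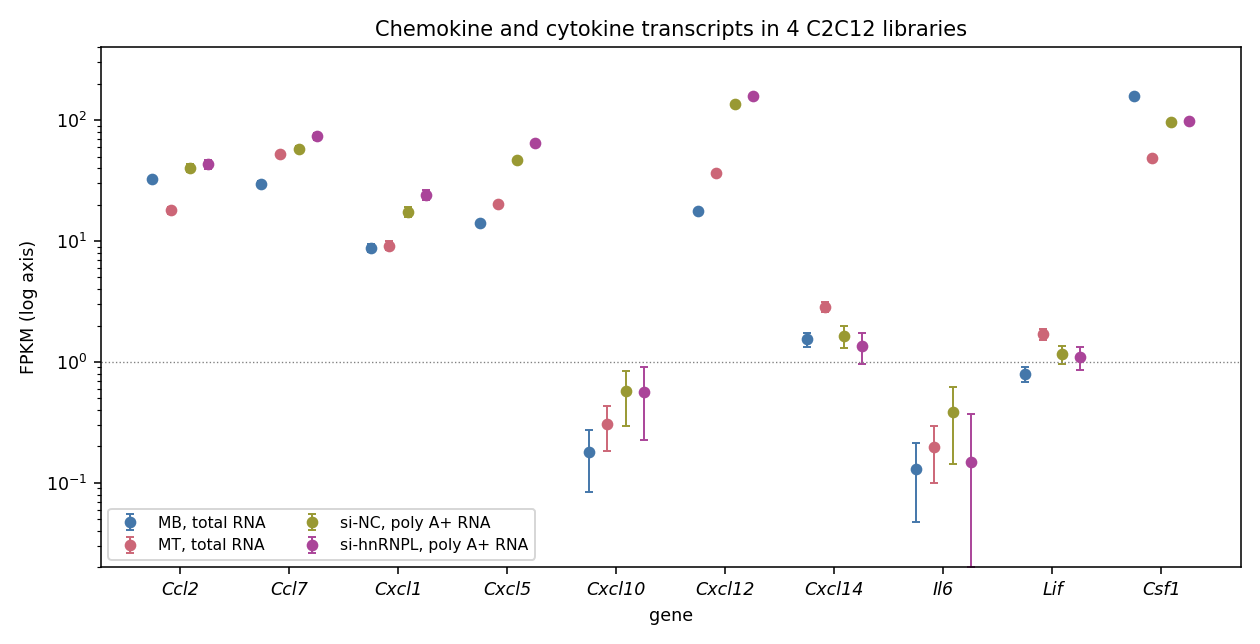
FPKM (log axis) of the 10 genes in the 4 libraries; points are single libraries, bars the 95% intervals of Cufflinks, and the dotted line marks 1 FPKM. Csf1 is highest in MB (158) and Cxcl12 in the poly A+ libraries (136 and 157), Cxcl10 and Il6 stay under 1 FPKM throughout, and the lower bound of Il6 in si-hnRNPL is 0 and runs off the axis.

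In MT vs MB, 2 of the 10 genes were lower (Csf1 and Ccl2) and 4 were higher (Ccl7, Cxcl12, Cxcl14 and Lif). Among the 18607 named entries above 0 in either library, 18.3% were lower and 10.4% higher. Among the 8 of these genes at 1 FPKM or above in either library the same 2 and 4 were called, against 28.6% lower and 15.4% higher of 11799 entries at that level. The median log2 difference of the 10 genes was 0.32, with 8 of 10 above 0, beside a median of 0.00 over all named entries above 0. Named genes at 1 FPKM or above in both libraries had a median of -0.23, so relative to the typical expressed gene these changes are 0.23 more positive. A scaling that equates the FPKM sum of genes with loci of 1 kb or longer turned the split of expressed entries from 28.6% lower and 15.4% higher to 12.2% lower and 33.6% higher, and left 1 gene of the 10 lower (Csf1) and 5 higher. Csf1 was the only gene of the 10 called lower in MT as deposited, after centring and with equal sums, while Ccl2 stayed below 0 but lost its call with equal sums. The set is therefore called here by its gene names and not as one of myoblasts.

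**Figure D2:**
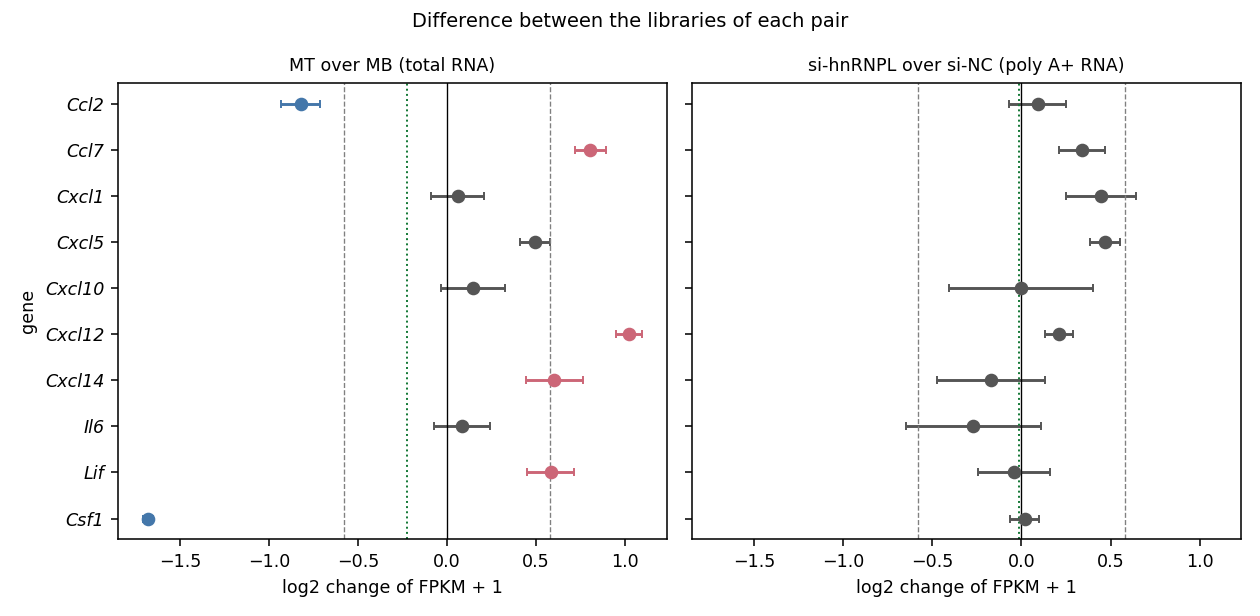
Log2 difference of FPKM + 1 for the 10 genes in MT over MB and in si-hnRNPL over si-NC; bars are 95% intervals from both libraries' intervals, dashed lines mark 0.58 and -0.58, and the dotted line marks the median of named genes at 1 FPKM or above in both libraries (-0.23 and -0.01). Csf1 and Ccl2 lie left of the lower dashed line in MT over MB, 4 genes lie at or right of the upper one, and none passes either line in si-hnRNPL over si-NC.

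The macrophage growth factor Csf1 (mm9 chr3:107543966-107563387) showed the largest difference of the set. It measured 158 FPKM in MB (156 to 159), 48.5 in MT (47.7 to 49.4), 96.4 in si-NC (92.5 to 100.2) and 97.7 in si-hnRNPL (93.6 to 101.7). The level in MT was 0.308 times that in MB (0.302 to 0.314), a log2 difference of -1.68, and 4.58% of the expressed entries had a lower value. With 34806 and 13394 implied fragments, counting error was small. Relative to the median gene the difference was -1.45, and under the equal-sum scaling -1.14, so Csf1 was lower under each scaling. In the siRNA pair the intervals overlapped. Here and in every bulk library, fewer cells that make a transcript and less of it per cell cannot be told apart.

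Ccl2 and Ccl7, neighbouring genes whose CC chemokines both attract monocytes through CCR2, differed in opposite directions. Ccl2 (mm9 chr11:81849079-81850954) measured 32.5 FPKM in MB (30.9 to 34.1), 18.0 in MT (16.8 to 19.1), 40.4 in si-NC (37.5 to 43.4) and 43.2 in si-hnRNPL (39.4 to 46.9). MT was lower than MB with a log2 difference of -0.82 (-0.93 to -0.71). That is a modest difference among all genes, as 18.2% of the expressed entries had a lower value. It was -0.59 relative to the median gene and -0.30 under the equal-sum scaling, which ended the call. Ccl7 (mm9 chr11:81859214-81861025) measured 29.9 FPKM in MB (28.4 to 31.4), 52.9 in MT (51.0 to 54.9), 58.0 in si-NC (54.5 to 61.5) and 73.6 in si-hnRNPL (68.6 to 78.5). It was higher in MT, with a log2 difference of 0.80 (0.72 to 0.89). The ratio of Ccl7 to Ccl2 inside a library does not depend on scaling. It was 0.919 in MB (0.858 to 0.985), 2.95 in MT (2.74 to 3.17), 1.44 in si-NC (1.31 to 1.58) and 1.70 in si-hnRNPL (1.53 to 1.90). The balance between these CC chemokines was therefore near even in MB and on the side of Ccl7 in the other 3 libraries, with overlapping intervals in the siRNA pair.

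Cxcl1 and Cxcl5, whose ELR chemokines attract neutrophils through CXCR2, were not called in either direction. Cxcl1 (mm9 chr5:91320271-91322141) measured 8.78 FPKM in MB (8.04 to 9.51), 9.19 in MT (8.45 to 9.92), 17.5 in si-NC (15.8 to 19.2) and 24.2 in si-hnRNPL (21.7 to 26.6). The intervals in MB and MT overlapped, and the log2 difference was 0.06 (-0.09 to 0.21). Cxcl5 (mm9 chr5:91188324-91190651) measured 14.0 FPKM in MB (13.4 to 14.7), 20.1 in MT (19.3 to 20.9), 46.4 in si-NC (44.5 to 48.3) and 64.6 in si-hnRNPL (61.8 to 67.4). Its log2 difference of 0.49 between MT and MB stayed under 0.58, but centring on the median gene brought it to 0.72 and equal sums to 1.02. Cxcl5 exceeded Cxcl1 in every library, by 1.60 times in MB (1.45 to 1.76), 2.19 in MT (2.01 to 2.39), 2.66 in si-NC (2.39 to 2.95) and 2.67 in si-hnRNPL (2.39 to 2.99).

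Cxcl12, the chemokine that guides CXCR4-bearing precursor cells, had the largest difference towards MT with 1 FPKM added, although Lif had the larger ratio without it (2.12 against 2.09). It lies at mm9 chr6:117118553-117131386 and measured 17.6 FPKM in MB (16.9 to 18.4), 36.8 in MT (35.7 to 37.9), 136 in si-NC (131 to 141) and 157 in si-hnRNPL (151 to 164). The level in MT was 2.09 times that in MB (1.98 to 2.20), a log2 difference of 1.02, and 7.63% of the expressed entries had a higher one. As a ratio to Csf1 in the same library, Cxcl12 stood at 0.112 in MB (0.107 to 0.117), 0.758 in MT (0.732 to 0.785), 1.41 in si-NC (1.33 to 1.49) and 1.61 in si-hnRNPL (1.52 to 1.71). Cxcl14, a chemokine made by many epithelial and stromal cells, was low throughout. At mm9 chr13:56390006-56397912 it measured 1.54 FPKM in MB (1.33 to 1.75), 2.85 in MT (2.57 to 3.13), 1.64 in si-NC (1.30 to 1.99) and 1.35 in si-hnRNPL (0.962 to 1.74). Its log2 difference in MT vs MB was 0.60 (0.44 to 0.76), just past the threshold. Cxcl10, an interferon-induced ligand of CXCR3, stayed under 1 FPKM at mm9 chr5:92775665-92777915. It measured 0.180 FPKM in MB (0.0836 to 0.276), 0.306 in MT (0.183 to 0.428), 0.571 in si-NC (0.294 to 0.847) and 0.569 in si-hnRNPL (0.226 to 0.912), from 11 to 25 implied fragments. A difference in Cxcl10 was not detectable at this depth in either pair.

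The gp130 cytokines Il6 and Lif were low in all libraries. Il6 (mm9 chr5:30339701-30346508 in the total RNA tables) measured 0.130 FPKM in MB (0.0478 to 0.212), 0.198 in MT (0.0992 to 0.298), 0.384 in si-NC (0.143 to 0.625) and 0.148 in si-hnRNPL (0 to 0.372). These values rest on 10.0, 16.0, 10.1 and 1.73 implied fragments. The ratio was 1.52 in MT vs MB (0.681 to 3.41) and 0.385 in si-hnRNPL vs si-NC (0.0743 to 2.00), so neither pair could be told apart at this depth. Lif (mm9 chr11:4157571-4172517) measured 0.800 FPKM in MB (0.686 to 0.914), 1.69 in MT (1.52 to 1.87), 1.16 in si-NC (0.967 to 1.35) and 1.09 in si-hnRNPL (0.865 to 1.33). The intervals of MB and MT did not overlap, and MT was 2.12 times MB (1.78 to 2.53). On the scale with 1 FPKM added the difference was 0.58 (0.45 to 0.71), which touched the threshold, and it was not called at a fold of exactly 1.5. With 0.1 FPKM added it was 1.00.

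The siRNA pair showed little difference in these genes. None of the 10 was lower and none higher in the library labelled si-hnRNPL, against 0.62% lower and 1.03% higher of 16766 named entries above 0, and 0.888% lower and 1.44% higher of 11369 entries at 1 FPKM or above in either library. So few genes passed the threshold in this pair that 0 of 10 does not set the set apart. An interval of the difference without 0 was found for 4 of the 10, all higher in si-hnRNPL. These were Cxcl5 at 0.47 (0.38 to 0.55), Cxcl1 at 0.45 (0.25 to 0.64), Ccl7 at 0.34 (0.21 to 0.47) and Cxcl12 at 0.21 (0.13 to 0.29) on the log2 scale. Among entries at 1 FPKM or above 47.5% had such an interval in either direction in this pair, close to the 4 of 8 of these genes at that level. The share with an interval above 0 was not counted, so the shared direction has no background here. In MT vs MB 89.9% of entries at that level had such an interval, beside 7 of these 8 genes. Cxcl5 stood at 1.39 times si-NC (1.31 to 1.48) with 2.59% of expressed entries higher, and Cxcl1 at 1.38 times (1.20 to 1.59) with 2.98% higher. These 4 remained above 0 when FPKM sums were equated, at 0.37, 0.35, 0.24 and 0.11. Ccl2 at 0.09, Csf1 at 0.02, Cxcl10 at 0.00, Lif at -0.04, Cxcl14 at -0.17 and Il6 at -0.27 had intervals that held 0. The median of the 10 was 0.06, beside 0.00 over all named entries above 0.

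The check of the knockdown bears on these values. Hnrnpl itself stood at 95.1 FPKM with the control siRNA and at 85.9 FPKM with si-hnRNPL, a log2 difference of -0.14 (-0.20 to -0.09), so its mRNA was lower by little in the library labelled si-hnRNPL. The study examined the knockdown as protein, by Western blot, which these mRNA values do not measure. In MT vs MB it was lower by more, at 111 FPKM in MB and 63.0 in MT, a log2 difference of -0.81, a call that the equal-sum scaling ended. The sense strand of the siRNA used for RNA-seq is shown with the bases opposite positions 2 to 8 of its guide in capitals.
si-hnRNPL #1: gcgugcuucugUUUACCAu
All 19 bases match the coding part of an Hnrnpl exon at mm9 chr7:29599064-29599082 (+), and no other annotated coding transcript holds them in full. The capitals were found in the 3′UTR of none of the 10 genes, against 9.74% of 19915 genes.

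The cultures expressed receptors for some of their own factors and not for others. The 17 receptor genes listed also include Osmr, Il11ra1 and Cntfr, which serve related gp130 ligands outside the 10 genes. Of the 17, 12 were above 0 in MB or MT, 6 were higher in MT and 0 lower, against 10.4% higher and 18.3% lower of all entries above 0. Those 6 include Osmr and Il11ra1. For CXCL12, the signalling receptor gene Cxcr4 measured 26.4 FPKM in MB and 91.8 in MT, a log2 difference of 1.76 (1.71 to 1.81). The scavenger receptor gene Ackr3 measured 12.9 and 26.0 FPKM, a difference of 0.96 (0.89 to 1.03). Ligand and both receptors were thus all higher in MT. For LIF, Lifr measured 14.6 FPKM in MB and 40.5 in MT (1.41 on the log2 scale), and Il6st, which encodes gp130, measured 32.4 and 49.4 (0.60). Osmr, the partner of gp130 for oncostatin M, was higher by 0.84 and Il11ra1, the receptor gene for interleukin-11, by 0.88. Il6ra, the ligand-binding chain for IL-6, measured 1.19 FPKM in MB and 1.33 in MT, with a difference of 0.09 (-0.03 to 0.22), and Cntfr 0.0531 and 0.0570.

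The receptors of the other ligands were under 1 FPKM in each library. Csf1r, the only listed receptor of CSF1, measured 0.0844 FPKM in MB, 0.0527 in MT, 0.0231 in si-NC and 0.0712 in si-hnRNPL, while its ligand stood between 48.5 and 158. Ccr2 and Ccr3, receptors for CCL2 and CCL7, were listed at 0 in MB and MT, and Ccr1 measured 0.0136 and 0.00862 FPKM. Cxcr1 and Cxcr3 were also listed at 0 in MB and MT. Cxcr2, the receptor for CXCL1 and CXCL5, measured 0.779 FPKM in MB, 0.425 in MT, 0.0981 in si-NC and 0.136 in si-hnRNPL. The decoy receptor genes Ackr1 and Ackr2 measured 0 in MB and at most 0.0168 FPKM in MT. In the siRNA pair 14 of the 17 were above 0 and none was called, with Il11ra1 at 0.42 (0.17 to 0.67), Cxcr4 at 0.28 (0.13 to 0.43) and Ackr3 at -0.22 (-0.35 to -0.09) on the log2 scale.

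**Figure D3:**
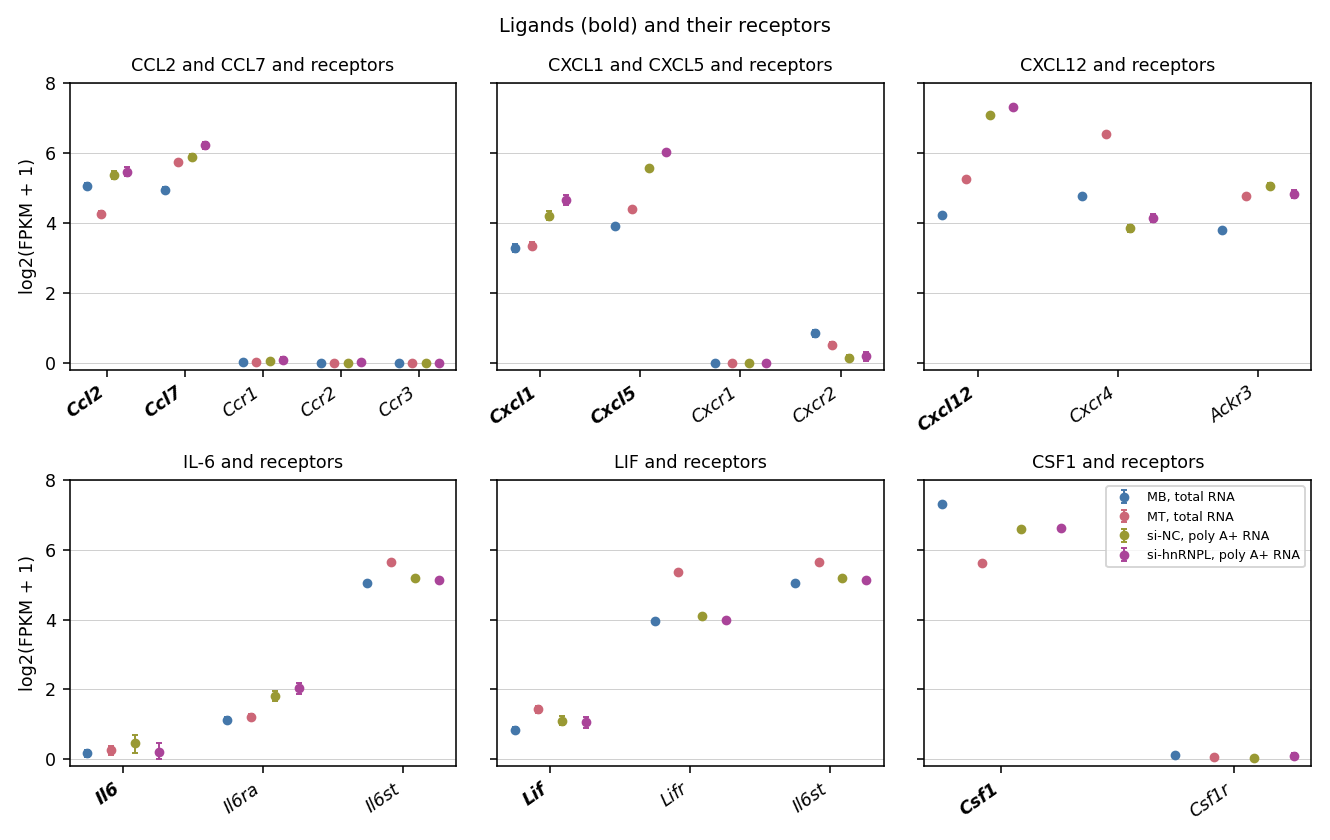
Levels as log2(FPKM + 1) of ligands (bold) and their receptors in the 4 libraries, with the 95% intervals of Cufflinks. Cxcl12, Cxcr4 and Ackr3 are all higher in MT than in MB, as are Lif, Lifr and Il6st, whereas Csf1r and the receptors drawn beside Ccl2 and Ccl7 lie at or near 0 in each library and Cxcr2 is under 1 FPKM.

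Ccl8 and Ccl11, neighbours of Ccl2 and Ccl7 on the chromosome, differed far more than these genes themselves, while the other neighbours in the CC and CXC clusters were at low levels. On chromosome 11 the order is Ccl2, Ccl7, Ccl11, Ccl12, Ccl8 and Ccl1. Ccl8 measured 1.20 FPKM in MB and 54.2 in MT, a log2 difference of 4.65 (4.37 to 4.92), and 10.3 in si-NC and 15.9 in si-hnRNPL. Ccl11, the eosinophil attractant eotaxin, measured 0.0925 FPKM in MB and 11.5 in MT, a difference of 3.51 (3.39 to 3.64), and 1.60 and 1.34 in the siRNA pair. The interval of Ccl8 thus overlapped that of Ccl7 in MT, though Ccl8 was far under Ccl7 in MB. Ccl12 had 0.0321 FPKM in MB and was listed at 0 elsewhere, and Ccl1 was listed at 0 in all 4 libraries. On chromosome 5, Cxcl5 and Cxcl1 were the only chemokine genes of their cluster above 2 FPKM in any library. Cxcl2, the close paralog of Cxcl1, was listed at 0 in all 4 libraries, and Cxcl3, Cxcl15 and Pf4 did not exceed 0.407 FPKM. Reads shared by near-identical chemokine paralogs could be assigned to either, so the split within each cluster is uncertain to that extent.

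**Figure D4:**
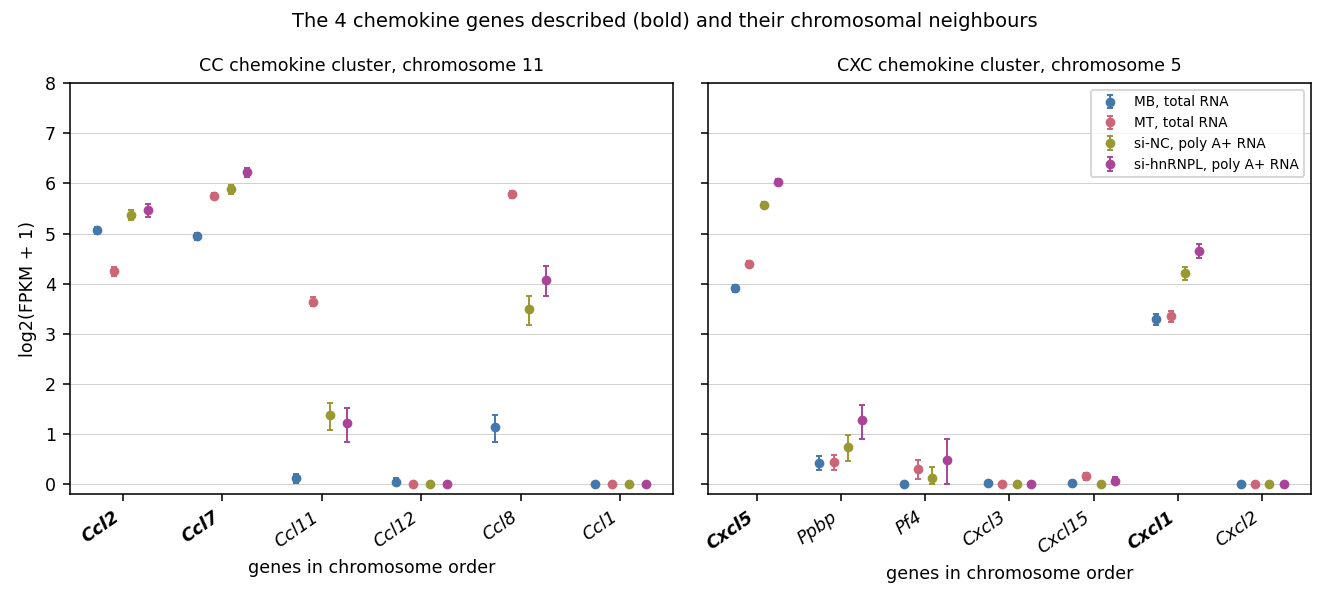
Levels as log2(FPKM + 1) of the genes of the CC cluster and the CXC cluster in chromosome order (spacing not to scale), with 95% intervals in the 4 libraries. Ccl8 and Ccl11 stand far higher in MT than in MB, while Cxcl1 and Cxcl5 stand above the other chemokine genes of their cluster, all of which lie under 2 FPKM.

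Over the whole chemokine family, few genes were expressed. Of 19 other CC ligands, 8 were above 0 in MB or MT, and Ccl8 and Ccl11 were higher in MT with none lower. Ccl25 measured 1.44 FPKM in MB and 1.18 in MT. Of 12 other CXC, C and CX3C ligands, 9 were above 0, 2 were higher and 0 lower. Both lists rest on few genes, beside 10.4% higher and 18.3% lower of all entries above 0. Cxcl13, a B cell attractant, was listed at 0 in MB and measured 1.06 FPKM in MT, and Cxcl16, which is bound to the membrane before it is shed, measured 0.364 and 1.15, a log2 difference of 0.65 (0.52 to 0.79). Cx3cl1, also membrane-bound, measured 12.3 and 8.85 FPKM, a difference of -0.43 that was not called. In the siRNA pair Ccl8 alone was called among these genes, at a log2 difference of 0.58 (0.18 to 0.99), and not under the equal-sum scaling. Of all entries above 0 in that pair, 1.03% were higher. Ccl5 differed by 0.26, Ccl11 by -0.15, Ccl25 by -0.13, Ppbp by 0.53, Cxcl13 by -0.40 and Cx3cl1 by -0.02, none of them called.

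Genes that act below gp130 differed in both directions. Of 14 JAK-STAT genes, 4 were higher in MT and 2 lower (5 and 1 after centring, 6 and 1 with equal sums), with a median of -0.08 beside 0.00 over all named entries above 0. Of all entries above 0, 10.4% were higher and 18.3% lower. At 1 FPKM or above the shares were 15.4% higher and 28.6% lower. They became 22.8% and 18.6% after centring and 33.6% and 12.2% with equal sums. Stat3, the main transcription factor of this route, measured 19.5 FPKM in MB and 43.8 in MT (1.13 on the log2 scale). Socs2, a feedback inhibitor, measured 17.6 and 35.4 (0.97), Socs1, another, 4.97 and 2.41 (-0.81, not called after centring on the median gene), and the phosphatase gene Ptpn6 2.15 and 0.610 (-0.97). None of the 14 was called between si-hnRNPL and si-NC. Socs1 differed by 0.54, Jak2 by -0.16, Socs2 by -0.15 and Ptpn11 by -0.15.

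The NF-kB and C/EBP genes, whose factors are known to act on many chemokine promoters, showed few differences as deposited. Of 18, 2 were higher in MT (Cebpa, 4.65 and 12.1 FPKM, 1.21 on the log2 scale, and Relb, 2.70 and 5.23, 0.75) and 1 was lower (the stress factor gene Atf3, 4.69 and 1.83, -1.01). The inhibitor gene Nfkbia, itself a target of NF-kB, measured 27.2 FPKM in MB and 18.3 in MT (-0.55, not called). Over all entries at 1 FPKM or above, 15.4% were higher and 28.6% lower as deposited. The count of higher genes was 6 after centring, against 22.8% of those entries. It was 9 after equating sums, against 33.6%. After hnRNPL siRNA none was called, with Cebpb at 0.42, Cebpd at 0.27, Chuk at -0.26 and Cebpa at 0.18.

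The factors of cytokine mRNA decay were lower in MT more often than higher as deposited and after centring, but not with equal sums. Of 10, all at 1 FPKM or above, 5 were lower and 1 higher, with a median of -0.56, against 28.6% lower, 15.4% higher and a median of -0.20 over all entries at that level. Zfp36l2 measured 42.7 FPKM in MB and 15.6 in MT (-1.40), Khsrp 33.8 and 15.7 (-1.06) and Hnrnpd 6.96 and 3.25 (-0.91), all encoding proteins that bind AU-rich elements. Zfp36l1, of the same family as Zfp36l2, went the other way, from 4.72 FPKM in MB to 20.2 in MT (1.89). This count depends on scaling, with 3 lower after centring and 1 lower (Zfp36l2) and 2 higher after equating sums. Of all entries at 1 FPKM or above, 18.6% were lower after centring. With equal sums 12.2% were lower and 33.6% higher. Between si-hnRNPL and si-NC none of 9 was called, as Hnrnpd had a failed estimate there. Zfp36 differed by 0.27, Tial1 by -0.26, Tia1 by -0.21 and Rc3h1 by -0.15.

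Interferon response genes, the group to which Cxcl10 is known to belong, ranged from near 0 to Irf1 at 22.1 FPKM in MB and 17.7 in MT. Of 14, 5 were higher in MT and none lower, against 10.4% higher and 18.3% lower of all entries above 0. After centring 8 were higher, and 7 with equal sums. The share of higher entries at 1 FPKM or above rose as well. It went from 15.4% to 22.8% after centring and to 33.6% with equal sums, and 6 of the 14 genes were at that level. The largest differences were those of Ifit3 at 0.231 FPKM in MB and 1.81 in MT (1.19), Isg15 at 0.445 FPKM in MB (1.10), Irf9 at 2.27 and 4.67 (0.79) and Stat2 at 3.08 and 5.72 (0.72). None was called between si-hnRNPL and si-NC, with Irf7 at 0.41, Ifit3 at 0.33, Gbp2 at 0.26 and Ifit2 at -0.20.

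**Figure D5:**
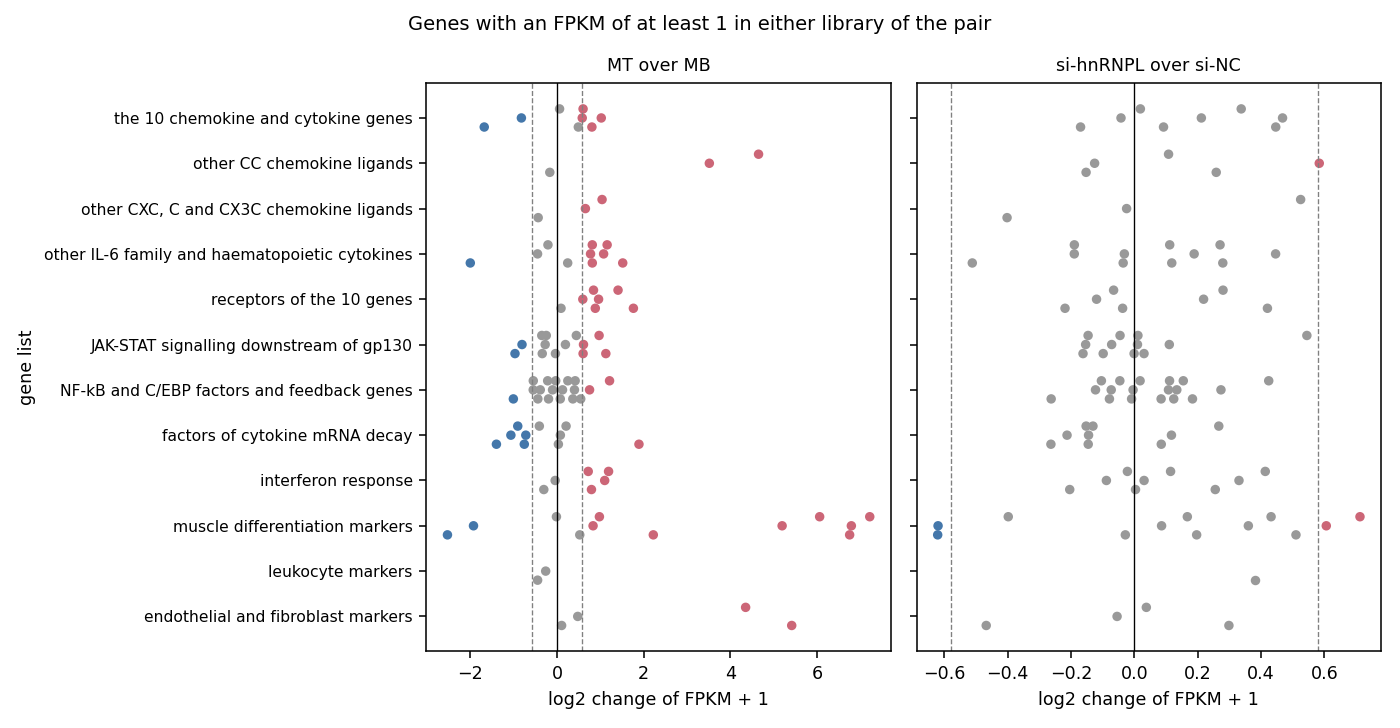
Log2 difference of FPKM + 1 for the genes at 1 FPKM or above in either library of the pair, by gene list, in MT over MB and in si-hnRNPL over si-NC (the horizontal axes differ in range); each point is a gene, red is 0.58 or more, blue is -0.58 or less, and points are shifted vertically only for legibility. In MT over MB the receptors lie at or right of 0 and 6 of the 10 decay factors left of it (5 called lower, but 1 with equal sums), and in the siRNA pair nearly all points lie between the dashed lines. The receptor list also holds Osmr and Il11ra1, which serve ligands outside the 10 genes.

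A set of 5 named genes had the pattern over the 4 libraries closest to the median profile of the 8 genes that reached 1 FPKM in any library, by Euclidean distance between centred log2(FPKM + 1) values among 11601 genes. They were Cox6c, Fzd2, Lrch4, Psme2 and Pea15a, at distances of 0.126 to 0.138. That profile stood at -0.43 in MB, -0.55 in MT, 0.26 in si-NC and 0.47 in si-hnRNPL. It mostly separates total RNA from poly A+ RNA. The distances of the 8 genes to it ran from 0.354 for Cxcl1 to 1.81 for Cxcl12.

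Markers checked whether other cell types could carry these transcripts. For the counts below, 10.4% of all entries above 0 were higher in MT than in MB and 18.3% lower. Of 12 muscle markers, 8 were higher in MT and 2, the proliferation genes Mki67 and Ccnd1, lower, with Myog at 0.695 FPKM in MB and 251 in MT, Tmem8c, a gene of cell fusion, at 0.471 and 157, Myh3 at 0.101 and 121 and Ckm at 0.00961 and 66.3. Pax7 and Myf5, which mark muscle progenitors, were not lower in MT. Pax7 measured 4.85 FPKM in MB and 7.42 in MT (0.53 on the log2 scale, 0.45 to 0.60, and called higher after centring and with equal sums), and Myf5 13.8 and 13.6. Of 12 leukocyte markers none was called in either pair, and their summed level was 8.23 FPKM in MB, 6.09 in MT, 8.88 in si-NC and 11.2 in si-hnRNPL, most of it Cd14 (6.86, 4.77, 7.85 and 10.5 FPKM) and, in MB, Cd68 (1.13). Emr1, Tyrobp and Cd3e were listed at 0 in all 4 libraries, and Ptprc, which marks all leukocytes, did not exceed 0.00871 FPKM. Of 9 endothelial and fibroblast markers, 2 were higher in MT and none lower, and their summed level was 21.0 FPKM in MB, 174 in MT, 480 in si-NC and 393 in si-hnRNPL. Dcn measured 0.503 FPKM in MB and 63.1 in MT and Postn 3.55 and 91.7, both genes of the extracellular matrix, while Pdgfra measured 2.14 and 3.38 and Col1a1 14.7 and 15.9. The endothelial genes Pecam1, Cdh5 and Kdr did not exceed 0.0241 FPKM in any library, and Tek measured 0.0220 FPKM in MB, 0.114 in MT, 0.338 in si-NC and 0.360 in si-hnRNPL. Dcn and Postn were higher in MT, as were Cxcl12, Ccl8 and Ccl11, whereas Col1a1 (0.11 on the log2 scale) and Pdgfra (0.48) were not called as deposited. The part of cells that express Dcn and Postn in those differences was not tested. Between si-hnRNPL and si-NC Dcn differed by -0.47, Pdgfra by 0.30, Postn by -0.05 and Col1a1 by 0.04, none called.

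Some differentiation markers differed in the siRNA pair as well. Of the 12 muscle markers, 2 were higher and 2 lower in si-hnRNPL, and the others were not called. Among all entries at 1 FPKM or above in either library, 1.44% were higher and 0.888% lower. Ckm stood at 45.0 FPKM with the control siRNA and 74.3 with si-hnRNPL (0.71 on the log2 scale) and Acta1 1009 and 1537 (0.61, not called with equal sums), whereas the proliferation genes Mki67 and Ccnd1 measured 24.3 and 15.5 (-0.62) and 31.9 and 20.4 (-0.62). These stand beside the smaller differences of Cxcl5, Cxcl1, Ccl7 and Cxcl12, and their part in them was not tested.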

How the data were processed

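C2C12 cells were profiled as 4 libraries, 1 per condition. Per the labels and the methods, the authors kept trimmed reads of at least 36 bp, aligned them to mm9 (TopHat v2.0.13) and deposited FPKM values from Cufflinks (v2.1.1), each row with an interval. Total RNA libraries were strand-specific (HiSeq2000); poly A+ libraries used NEBNext Ultra II (HiSeq1500).

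From these values, log2((FPKM + 1) ratio) was computed over all named rows without a failed estimate, with an interval from both half-widths in quadrature; 0.58 marked a call. Fragments were taken as (2 x FPKM / (upper bound - FPKM)) squared. Locus starts, which lay 1 below annotated starts for 12029 rows, are given 1-based. The 10 genes, the gene lists and the rules were chosen with earlier results of these data known. Named were the 10 genes, every receptor, the 4 genes of each other list with the largest absolute difference at 1 FPKM or above, Hnrnpl, 5 genes of like pattern and, added after their values were seen, neighbours in the clusters and some marker genes; 1 listed marker is not reported here. Alternatives were pseudocounts of 0.1 and 0.01, a threshold of 1, a filter at 1 FPKM, centring and equal sums, and, chosen after seeing the data, a fold of exactly 1.5. Python 3.11.15, numpy 2.4.6, pandas 2.3.3 and matplotlib 3.10.9 were used, and the calculation was tested on simulated data.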

Additional observations from a re-analysis of the deposited data

Results flagged for a closer look

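A total of 3 transcript units assembled from the total RNA reads lie within the loci of these genes and enter none of the comparisons above. A unit of 303 bases inside Cxcl1, at mm9 chr5:91321038-91321340 and outside its annotated exons, measured 4.79 FPKM in MB (57 implied fragments) and 2.68 in MT (34), both above the level of 3 fragments. The unit at Cxcl12, at mm9 chr6:117125193-117125891 and overlapping 1 annotated exon, measured 1.52 FPKM in MB and 2.74 in MT. The unit at Lif, at mm9 chr11:4167136-4168087 and outside its annotated exons, measured 0.137 FPKM in MB (9 fragments) and 0.406 in MT (28). The log2 difference of the Cxcl1 unit was -0.65 (-1.13 to -0.18) and that of the Lif unit 0.31 (0.11 to 0.50). No condition in these data lacks the genes, so no control level can be given.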

How the results depend on the processing

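The call counts in MT vs MB held with few exceptions. At a threshold of 1 on the log2 scale, 1 gene was lower and 1 higher, and with FPKM sums equated 1 was lower. The number higher was 3 to 5 under the other alternatives, with Lif lost at a fold of exactly 1.5. The median difference of 0.32 was 0.53 with 0.1 FPKM added, 0.65 with 0.01, 0.54 at 1 FPKM or above, 0.55 after centring and 0.75 with equal sums. In si-hnRNPL vs si-NC, 1 gene (Il6, on 1.73 fragments in si-hnRNPL) was lower with 0.1 and with 0.01 FPKM added, and the median of 0.06 became -0.022 with equal sums. Of the 48 recomputed differences of single genes in MT vs MB, 48 kept their sign, and of the 48 in the siRNA pair 3 did not, Ccl2 and Csf1 with equal sums and Cxcl10 after centring, all of them near 0. The cause of these shifts was not tested. No paired analysis was possible because each condition has 1 library, and for the same reason no library could be left out. Depth limits Il6 and Cxcl10, which rest on 25 fragments or fewer in each library, and cultures, time and siRNA cannot be told apart from the single library that holds them.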

Other observations

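Other cytokine genes, outside the 10 genes, were called higher in MT more often than lower. The list was mixed, with IL-6 family and haematopoietic cytokine genes beside Il1a, Il1b, Il18, Il33, Tnf and Vegfa. Of 16 of its genes above 0 in MB or MT, 7 were higher in MT and 1 lower, against 10.4% higher and 18.3% lower of all entries above 0. The median difference of the 16 was 0.16, and their summed level was 97.6 FPKM in MB and 82.3 in MT. The gp130 ligand gene Clcf1 was the only gene called lower, with 31.4 FPKM in MB and 7.10 in MT, a log2 difference of -2.00. Others were below 0 without a call, such as Vegfa at 41.6 FPKM in MB and 30.2 in MT (-0.45). Il18 measured 2.00 FPKM in MB and 7.58 in MT (1.52), Tslp 0.903 and 3.24 (1.16) and Il33 2.77 and 6.94 (1.08). In the siRNA pair none of 13 was called, with Il33 at -0.51, Ctf1 at 0.45, Il1b at 0.28 and Cntf at 0.27 on the log2 scale.

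hnRNPL is known to bind CA-rich RNA. The study mapped hnRNPL binding in differentiating C2C12 cells and placed most of it in introns, which a 3′UTR count leaves out. Those mapped sites were not used here. CACACA was counted in the 3′UTRs after the values had been seen, and was found in Cxcl12 (7 copies in 5188 bases), Cxcl14 (3), Cxcl10 (1) and Csf1 (1), that is in 4 of the 10 genes, against 43.3% of genes with a 3′UTR of comparable length. The 4 of 10 is near that share and does not set these genes apart. Of the 4 genes with an interval above 0 in si-hnRNPL vs si-NC, Cxcl5, Cxcl1 and Ccl7 held no copy. Cxcl12 held the most copies, in the longest 3′UTR of the set. Cxcl14, with 3 copies in only 1145 bases, differed by -0.17 (-0.47 to 0.13). A link between the copies and these differences was not tested.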
